A study of Mus musculus with 24 samples.

Results

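Tubulin isotypes are the alternative alpha and beta chains of the tubulin dimer, and 10 of their genes were followed here among the 52089 gene symbols of the deposited table. The 4 alpha genes were Tuba1a, Tuba1b, Tuba1c and Tuba4a, and the 6 beta genes were Tubb5, Tubb2a, Tubb2b, Tubb6, Tubb4b and Tubb3. Members were taken by symbol. These symbols own 45 of the 168326 transcript entries, and for each gene the curated RefSeq messenger RNA entry was chosen by its mean RPKM over all 24 libraries, the highest being kept. That mean is the only measured value the choice of entry used, and levels are therefore given as a description. The isotypes themselves and the gene lists below were chosen with earlier results of these data known. Their counts and medians beside those of all entries are thus a description as well.

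The cells were grown from preadipocytes of inguinal white fat of 129SvEv mice (named 129S6sv/ev in the study's methods). They were cultured with rosiglitazone, which turns them toward brite cells, white fat cells with the heat-producing programme of brown fat. By the study's methods, differentiation had been induced before transfection, with insulin, thyroid hormone, isobutylmethylxanthine, indomethacin and dexamethasone beside rosiglitazone. Transfection fell on the first day after induction, so samples at 72 h are also later in differentiation than those at 24 h. All 4 groups were transfected with a locked nucleic acid gapmer at 50 nM, an antisense oligonucleotide that recruits RNase H. In KD (knockdown) it matched Ctcflos, a long noncoding RNA, in NC (negative control) it had no target, and RNA was taken after 24 h or 72 h. Each group held 6 libraries, which the study's legends call biological replicates. No label says whether they came from separate cultures or animals, so p-values measure only the spread between these libraries.

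Alpha and beta chains form a dimer that adds to the ends of microtubules, the hollow filaments along which kinesin and dynein carry organelles and which shape the cell. Isotypes are nearly identical in their folded core and differ mainly in the acidic tail at the carboxyl end, where enzymes add and remove tyrosine and glutamate. Cells also adjust tubulin messages to the pool of free dimers: when it grows, the start of the nascent chain is recognised on the ribosome and the message is degraded. In fat cells the microtubule network is rebuilt when the elongated preadipocyte rounds up and fills with lipid.

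The 48 last coding bases of 7 members are shown because they encode the tail, in which most isotypes differ. The runs of Tubb2a and Tubb2b differ only in letters that leave the encoded amino acids unchanged, so their tails are the same. The stop codon is in capitals, and the letters come from the GENCODE M21 annotation of the mouse genome build GRCm38.
Tuba1c: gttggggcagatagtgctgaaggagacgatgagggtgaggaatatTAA
Tuba4a: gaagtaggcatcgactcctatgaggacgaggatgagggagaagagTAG
Tubb5: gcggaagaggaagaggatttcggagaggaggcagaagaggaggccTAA
Tubb2a: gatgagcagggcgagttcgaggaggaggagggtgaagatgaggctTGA
Tubb2b: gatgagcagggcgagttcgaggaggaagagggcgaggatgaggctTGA
Tubb4b: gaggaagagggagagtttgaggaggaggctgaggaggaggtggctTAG
Tubb3: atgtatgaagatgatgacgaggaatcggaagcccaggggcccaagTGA
The first 12 coding bases, which encode the part of the chain read by the autoregulation described above, were atgcgtgagtgc in Tuba1a, Tuba1b and Tuba1c and atgcgcgagtgc in Tuba4a. They were atgcgcgagatc in Tubb2a, atgcgagagatc in Tubb2b, atgagggagatc in Tubb3 and Tubb4b and atgagggaaatc in Tubb5. The alpha members thus shared 2 such runs and the 5 beta members shown had 4, with none common to both families. Within a family these letters differ without changing the chain. Every alpha run encodes Met-Arg-Glu-Cys and every beta run shown Met-Arg-Glu-Ile.

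On GRCm38, Tuba1a lay at chr15:98949837-98953703 on the minus strand, Tuba1b at chr15:98931425-98934565 on the minus strand and Tuba1c at chr15:99029891-99038110 on the plus strand. Tuba4a lay at chr1:75214228-75219865, Tubb2a at chr13:34074274-34078007, Tubb2b at chr13:34126748-34130466, Tubb5 at chr17:35833921-35838306 and Tubb4b at chr2:25222160-25224702, all on the minus strand. Tubb3 lay at chr8:123411424-123422015 on the plus strand. The alpha genes Tuba1a, Tuba1b and Tuba1c are neighbours on 1 chromosome, as are Tubb2a and Tubb2b, and the annotated transcript of every member had 4 exons.

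The reads came from the 3′ ends of transcripts, so how far neighbours could share reads was examined on the last 500 bases. These were taken from annotated transcripts, which can differ in length from the measured entries. Coding identity was 98.3% between Tuba1a and Tuba1b, 97.9% between Tuba1b and Tuba1c, 97.1% between Tuba1a and Tuba1c and 96.5% between Tubb2a and Tubb2b. The last 200 bases of the same pairs were only 42.9% to 46.1% identical. Of the 451 windows of 50 bases in the last 500 bases, 56.3% of Tuba1a, 63.6% of Tuba1b, 68.3% of Tuba1c, 42.4% of Tubb2a and 35.3% of Tubb4b also occurred in another gene on the same strand, including pseudogenes. As reverse complement, 50.6% to 69.2% of the windows of Tuba1a, Tuba1b and Tuba1c occurred in other transcripts. These belonged to AC157548.1 and, for Tuba1c, also to Slc7a11. The search covered all annotated transcripts, so a match need not lie near the member. No window in another gene on the same strand was found for Tuba4a, Tubb2b, Tubb3, Tubb5 and Tubb6. Values of Tuba1a, Tuba1b and Tuba1c, and that of Tubb2a against Tubb2b, are therefore uncertain to the extent that reads were assigned to more than 1 of them. The same holds for Tubb4b and the other genes that share its windows. It also holds for the matches as reverse complement if reads were not counted by strand. Levels of AC157548.1 and of the pseudogenes are not given here.

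Values are RPKM, reads divided by transcript length and library size, scaled between libraries by a trimmed mean of log ratios. The depth recovered from the values was 1391832 to 5423840 reads in 23 libraries and at most 5926375 in NC 72 h replicate 6, whose values moved in steps of 2 sizes. The reads of replicates 2 and 3 of NC 72 h differed by less than the sampling noise, and their average stands for both, which leaves n = 5 there. By their correlation the libraries split unevenly, 16 against 8, and the smaller cluster took 2 from each group. The target itself, listed as 1300015D01Rik, had 0 to 0.894 scaled RPKM in KD 24 h against 0.72 to 3.00 in NC 24 h, and 0 to 0.841 in KD 72 h against 1.61 to 4.15 in NC 72 h. It was too low to be tested. All 10 adipocyte markers were tested, and 4 of them were lower in KD at 24 h and 6 at 72 h, while 0 were higher. Their summed level ran from 37744 to 50704 in KD 24 h and from 50918 to 53673 in NC 24 h, and from 26735 to 36487 in KD 72 h against 37669 to 48836 in NC 72 h, none of the 10 being at 0. Whether these marker levels had a part in the values below was not tested. In such bulk libraries, fewer cells of a type and less RNA per cell cannot be told apart.

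The family was dominated by a few genes. In NC 72 h the mean scaled RPKM was 577 ± 55.9 for Tuba1a (SD, n = 5), 210 ± 19.1 for Tubb5, 120 ± 11.1 for Tuba1b, 92.1 ± 25.5 for Tubb6, 84.7 ± 3.27 for Tubb2a, 82.2 ± 11.4 for Tubb4b and 37.5 ± 6.50 for Tuba1c. Tuba4a had 3.84 ± 1.06, Tubb2b 2.69 ± 1.00 and Tubb3 1.01 ± 0.867. The ranges of Tuba1b, Tubb6, Tubb2a and Tubb4b ran into each other along this order, as did those of Tuba4a, Tubb2b and Tubb3, whereas Tuba1a, Tubb5 and Tuba1c each stood clear of the gene that followed. Tuba1a, an alpha chain known from developing neurons, was highest in all 4 groups, followed by Tubb5, the widely expressed class I beta chain. The median library held 3938.5 reads of Tuba1a and 2354 of Tubb5, but only 59 of Tuba4a, 19.5 of Tubb2b and 5.5 of Tubb3. Since RPKM divides 3′ end reads by transcript length, levels of genes with long transcripts are understated in this order.

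**Figure D1:**
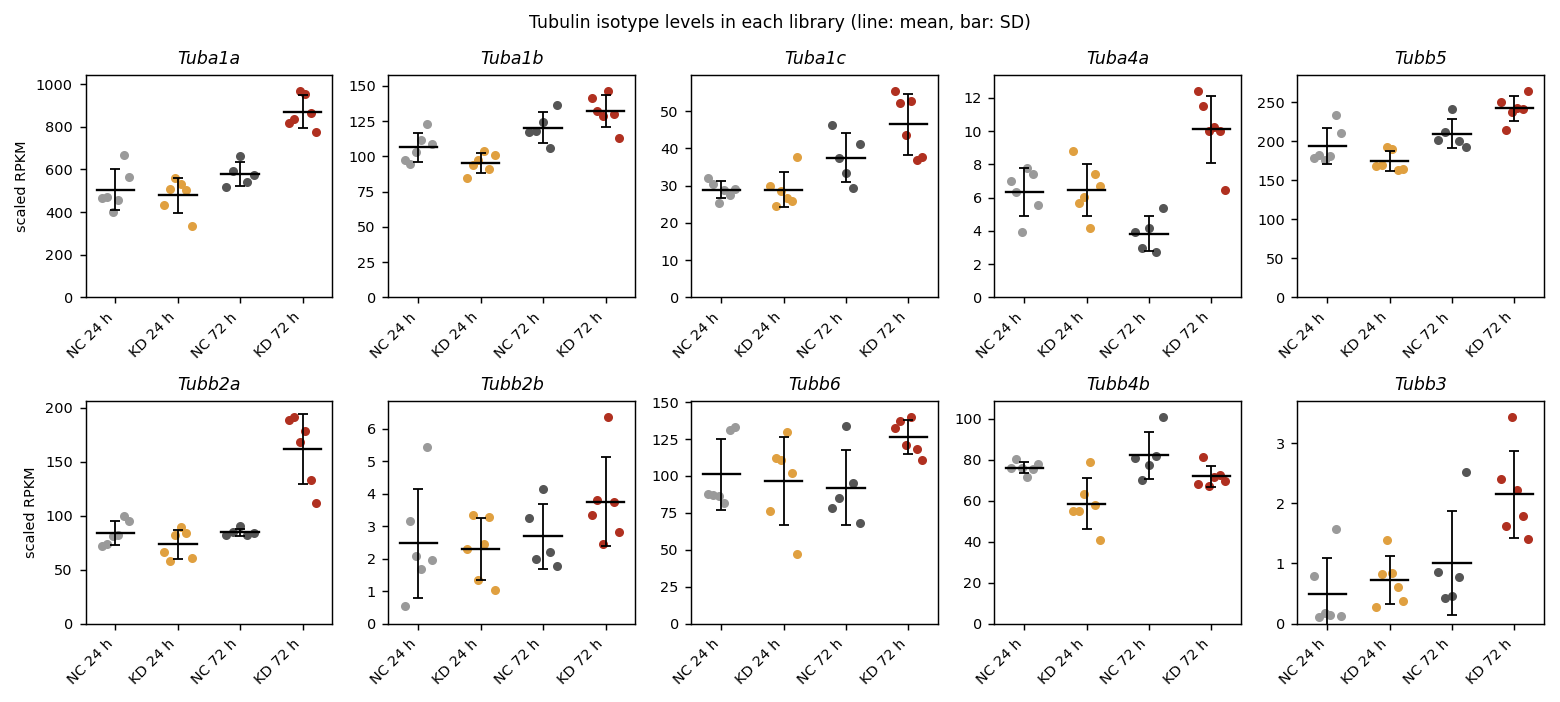
Scaled RPKM of each tubulin isotype (vertical axes, each starting at 0) in every library of the groups NC 24 h, KD 24 h, NC 72 h and KD 72 h (points), with the group mean (line) and SD (bar). For Tubb2a, Tuba4a and Tuba1a all 6 KD 72 h points lie above all 5 NC 72 h points, whereas the groups at 24 h overlap. How often levels separate in this way among other genes was not examined.

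After 24 h of knockdown, 1 of the 9 tested isotypes was called, Tubb4b, which was lower in KD. Tubb3 fell short of the minimum level. Over all 52030 entries tested, 22.6% were called at this time (adjusted p-value under 0.05, limma with Benjamini-Hochberg correction), with 11.8% called lower and 10.9% called higher. The median log2 fold change of the 9 isotypes was -0.11, beside -0.01 over all entries, and 2 of the 9 values were above 0.

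Tubb4b encodes the widely expressed class IVb beta chain. Its scaled RPKM was 40.7 at the lowest, 56.6 at the median and 79.0 at the highest in KD 24 h, against 71.8, 75.9 and 80.3 in NC 24 h. The KD libraries were thus spread far more widely than the controls, and the groups overlapped in the highest KD library. The log2 fold change was -0.41 ± 0.13 (SE, adjusted p = 0.0393), and the mean of KD was 76.8% of that of NC. Over leaving out each library in turn the value ran from -0.50 to -0.31 and the adjusted p from 0.00796 to 0.076. The call was lost without KD 24 h replicate 1, 2 or 5 and without any 1 of the 6 NC libraries. The value was -0.55 within the larger cluster of libraries and -0.12 within the smaller one.

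The 3′ end of Tubb4b overlaps Fam166a on the opposite strand, in 16% of the windows defined above, and whether reads were counted by strand is not given in the sources used here. Fam166a had 23.4 to 62.7 scaled RPKM in KD 24 h and 52.0 to 60.4 in NC 24 h, and its log2 fold change was -0.46 ± 0.18 (adjusted p = 0.0774). The levels of both genes correlated across the 23 samples (Pearson r = 0.96 and 0.94 after the group means were taken off, points sharing library and depth). To what extent reads of the shared stretch were counted for both genes is not known. Whether such reads had a part in the values of Tubb4b was not tested.

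The other 8 tested isotypes did not pass the test at 24 h. Tuba1a had a log2 fold change of -0.08 ± 0.14 (adjusted p = 0.731), with 336 to 559 scaled RPKM in KD 24 h and 402 to 670 in NC 24 h. Tubb5 stood at -0.15 ± 0.10 (adjusted p = 0.293) and Tubb2a at -0.20 ± 0.14 (adjusted p = 0.286). The intervals left room for changes in either direction, from -0.49 to 0.08 for Tubb2a and from -0.43 to 0.48 for Tuba4a (95%). KD 24 h replicate 6, the shallowest library, held the lowest KD value of Tuba1a, Tubb6 and Tubb4b. Without it, Tuba1a stood at 0.02, Tubb6 at 0.08 and Tubb4b at -0.31 (adjusted p = 0.0381).

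After 72 h of knockdown, 5 of the 10 isotypes were called and all 5 were higher in KD: Tuba4a, Tubb3, Tubb2a, Tuba1a and Tubb6. Over all 54491 entries, 22.3% were called at this time, 10.3% higher and 11.9% lower. The median log2 fold change of the 10 isotypes was 0.48, beside 0.01 over all entries, and 9 of 10 values were above 0. Tubb3 reached the minimum level through the KD 72 h libraries, 6 of 6 against 1 of 5 in NC 72 h, so its call is given as a description, and 4 of the other 9 were called.

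**Figure D2:**
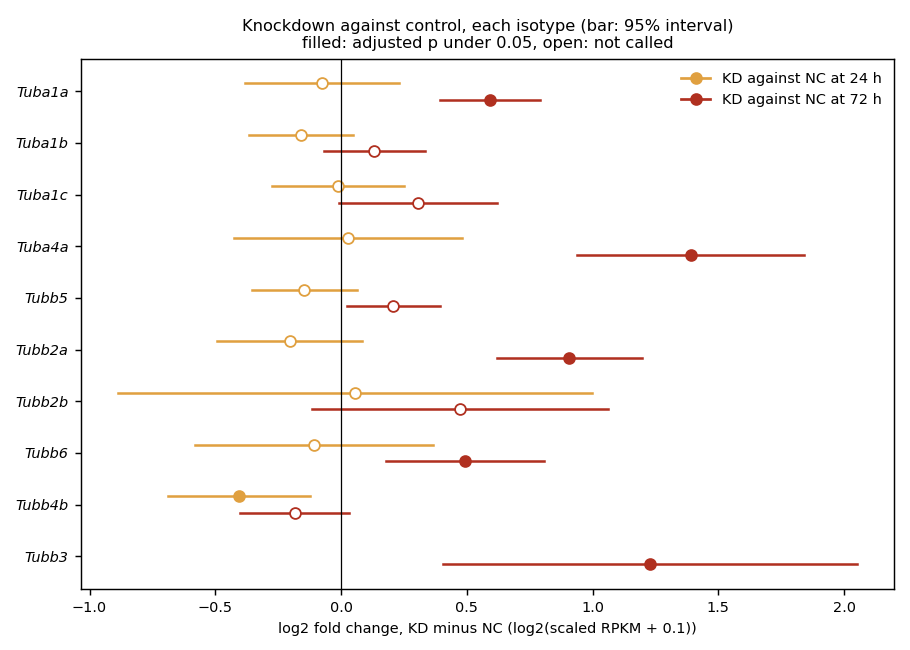
Log2 fold change of KD against NC (horizontal axis, log2 of scaled RPKM plus 0.1) for each tubulin isotype at 24 h (orange) and 72 h (red), with its 95% interval (bar). Filled points passed an adjusted p-value of 0.05: Tubb4b at 24 h, and Tuba1a, Tuba4a, Tubb2a, Tubb6 and Tubb3 at 72 h.

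Tubb2a, a class II beta chain known from brain, had 111 scaled RPKM at the lowest, 173 at the median and 191 at the highest in KD 72 h. The NC 72 h libraries had 82.3, 84.7, 90.2, 82.3 and 83.9. The controls were tightly grouped and every KD library was above all of them. How often the groups separate in this way among other genes was not examined, here and for Tuba4a and Tuba1a below. Mean levels were 162 ± 32.4 (n = 6) and 84.7 ± 3.27 (n = 5), a ratio of 1.91, and the log2 fold change was 0.91 ± 0.13 (adjusted p = 3.65e-04). Tubb2a was higher in KD within both clusters of libraries, by 1.12 in the larger (adjusted p = 7.22e-06) and by 0.50 in the smaller (adjusted p = 0.0563, 2 libraries a group). The call held on leaving out any 1 library (adjusted p at most 0.00146).

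Tubb2b, the closest relative of Tubb2a, did not pass the test. It had 2.46 to 6.36 scaled RPKM in KD 72 h and 1.79 to 4.16 in NC 72 h, and the groups overlapped. Its log2 fold change was 0.47 ± 0.28 (adjusted p = 0.238, 95% interval -0.12 to 1.06). At a median of 19.5 reads per library this interval still holds the value of Tubb2a.

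Tuba4a, the alpha gene known for not encoding the terminal tyrosine that other alpha chains carry, had 6.47 scaled RPKM at the lowest, 10.2 at the median and 12.4 at the highest in KD 72 h. In NC 72 h the values were 3.96, 2.95, 4.16, 2.73 and 5.38. All 6 KD libraries were above the highest control. The ratio of the means was 2.64 and the log2 fold change 1.39 ± 0.21 (adjusted p = 4.26e-04), the largest among the isotypes at this time. Within the larger cluster it was 1.44 and within the smaller one 1.23 (adjusted p = 0.0501).

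Every window at the 3′ end of the annotated Tuba4a transcript lies in Stk16, a kinase gene on the opposite strand. That transcript has 2840 bases and the measured entry 2053, so their 3′ ends may differ. Stk16 had 9.14 to 10.6 scaled RPKM in KD 72 h and 6.60 to 10.4 in NC 72 h, and its log2 fold change was 0.19 ± 0.14 (adjusted p = 0.357). Its groups overlapped, unlike those of Tuba4a. The split of reads between both genes is not known, and the difference between their fold changes was not tested. Across the 23 samples the levels of both genes had Pearson r = 0.44, a description of points that share library and depth.

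**Figure D3:**
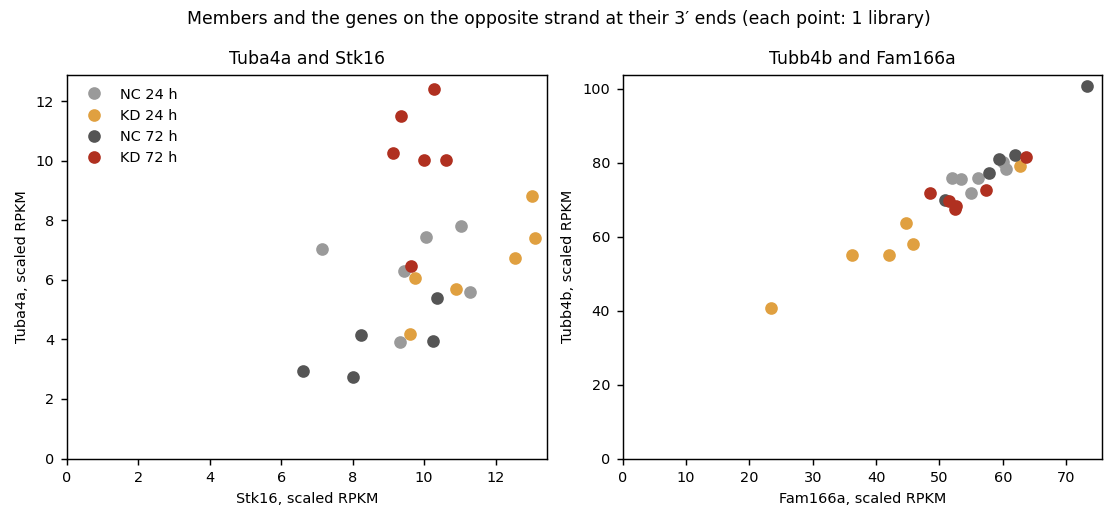
Scaled RPKM of Tuba4a against Stk16 and of Tubb4b against Fam166a (axes start at 0), 1 point per library, coloured by group. The Tubb4b and Fam166a points follow a common line (r = 0.96), whereas the KD 72 h points of Tuba4a (6.47 to 12.4) lie above the NC 72 h points (2.73 to 5.38) where Stk16 overlaps.

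Tuba1a had 774 to 968 scaled RPKM in KD 72 h, with a median of 852, against 517, 591, 663, 540 and 573 in NC 72 h. The groups did not overlap. The ratio of the means was 1.51 and the log2 fold change 0.59 ± 0.09 (adjusted p = 5.3e-04). It was 0.67 within the larger and 0.45 within the smaller cluster (adjusted p = 0.0578). The other genes of the cluster on chromosome 15 had smaller values that did not pass the test: Tuba1b stood at 0.13 ± 0.09 (adjusted p = 0.335) and Tuba1c at 0.31 ± 0.15 (adjusted p = 0.15), and in both the groups overlapped.

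Tubb6, a class V beta chain, and Tubb3, the class III chain that is used as a marker of neurons, were called with less margin. Tubb6 had 111 to 140 scaled RPKM in KD 72 h and 78.2, 85.1, 134, 95.5 and 67.9 in NC 72 h, so that 1 control lay within the KD range. Its log2 fold change was 0.49 ± 0.15 (adjusted p = 0.0266), with 0.79 in the larger and 0.02 in the smaller cluster. The adjusted p ran from 0.00181 to 0.0691 over leaving out each library in turn, and the call was lost without KD 72 h replicate 1, 2 or 4, and without NC 72 h replicate 1, replicate 6 or the average of replicates 2 and 3.

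Tubb3 had 1.402 to 3.43 scaled RPKM in KD 72 h, against 0.858, 0.429, 0.464, 0.781 and 2.52 in NC 72 h, at 1 to 25 reads per library over the 4 groups. Its log2 fold change was 1.23 ± 0.39 (adjusted p = 0.0343). The call was lost within either cluster (adjusted p = 0.115 and 0.137). The adjusted p ran from 0.00314 to 0.0872 over leaving out each library in turn, and the call was lost without KD 72 h replicate 1, 3 or 4 and without any 1 of the controls other than replicate 6. Neuron markers were near the floor: 0 of 10 passed the minimum level, Rbfox3 was at 0 in every library, and their summed level was 0.665 to 3.81 scaled RPKM in KD 72 h and 0.944 to 3.47 in NC 72 h.

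Tubb5 and Tubb4b did not pass the test at 72 h. Tubb5 had a log2 fold change of 0.21 ± 0.09 (adjusted p = 0.0987), with 215 to 264 scaled RPKM in KD 72 h and 193 to 242 in NC 72 h. Tubb4b was the only isotype below 0, at -0.19 ± 0.10 (adjusted p = 0.212), although on the deposited scale it stood at 0.07. Entries of 1 gene gave like values except for Tubb5, where 3 GenBank entries had log2 fold changes of -0.10 while the others lay between 0.21 and 0.28.

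The count at 72 h depends on the scaling. Without scaling, the median of all entries was shifted by 0.25 on the log2 scale in favour of KD, 80.9% of the called entries were higher against 46.4% with scaling, and 8 isotypes were called, with Tuba1b, Tuba1c and Tubb5 added to the 5. The values above are relative to that shift. Markers of proliferating cells, in which tubulin genes are often high, gave 0 calls of 10 at either time by limma (at an unadjusted p-value under 0.05, 3 at 24 h and 0 at 72 h), with 63.8 to 164 summed scaled RPKM in NC 72 h and 75.8 to 109 in KD 72 h. Of the epithelial markers Krt19 alone passed the minimum level, and it was higher in KD at both times (log2 fold change 1.05 and 2.54). The summed level of the 6 epithelial markers was 24.6 to 76.4 in KD 24 h, 19.1 to 26.0 in NC 24 h, 96.4 to 162 in KD 72 h and 19.1 to 28.2 in NC 72 h. Of 10 stromal progenitor markers 7 were tested at 72 h and 2 were higher, Pdgfrb and Cd34, the latter at the minimum level in 6 of 6 KD 72 h and 0 of 5 NC 72 h libraries, so that it was tested through the group where it is high. The summed level of the 10 was 1176 to 1535 in KD 72 h and 774 to 2072 in NC 72 h. Schwann cell markers summed to 3.92 to 6.16 scaled RPKM in the KD libraries and 7.49 to 14.3 in the NC libraries, with Erbb3 at 0 throughout, and of 2 tested 2 were lower at 24 h and 1 at 72 h. Of 3 macrophage markers tested, Csf1r was higher at both times and Lyz2 lower at 72 h, where it reached the minimum level in 5 of 5 NC and 1 of 6 KD libraries and was thus tested through the group where it is high. The macrophage markers summed to at most 31.7 and the endothelial markers to at most 1.91 in any library. The part of these cell types in the isotype values was not tested.

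The isotype effects at the 2 times were compared by an interaction term over all groups. Of the 10 isotypes, 1 passed this test, Tubb2a, whose knockdown effect was higher at 72 h than at 24 h by 1.11 ± 0.19 on the log2 scale (adjusted p = 0.0104), whereas 0.187% of the 59465 entries tested were called, 0.113% above and 0.074% below 0. All 10 values were above 0, Tubb3 being tested through its KD 72 h libraries. Tuba4a followed at 1.36 ± 0.30 (adjusted p = 0.0586), with adjusted p between 0.0172 and 0.126 under the alternatives and 0.0414 in 1 of its other entries, and Tuba1a at 0.67 ± 0.18 (adjusted p = 0.122).

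In the controls alone, no isotype was called between 24 h and 72 h by limma, of 9 tested, against 9.09% of the 52883 entries, 4.63% higher and 4.46% lower at 72 h. At an unadjusted p-value under 0.05 the count was 2, Tuba4a at -0.72 ± 0.22 (adjusted p = 0.0572) and Tuba1c at 0.36 ± 0.12 (adjusted p = 0.0728), and voom on recovered reads called 1. In the KD groups, 6 of 10 isotypes were higher at 72 h, against 9.8% of the 53232 entries called, 5.13% higher and 4.67% lower. These were Tuba1a, Tuba1b, Tuba1c, Tubb2a, Tubb5 and Tubb3, with log2 changes from 0.47 for Tuba1b and Tubb5 to 1.13 for Tubb2a and 1.53 for Tubb3. Tubb3 again passed the minimum level through KD 72 h. Tubb2a thus stood at 84.2 and 84.7 scaled RPKM on average in the controls at 24 h and 72 h, and at 73.6 and 162 in the KD groups. These comparisons share samples with those of KD against NC and add no separate evidence to them.

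Shares within each family are given without a test. Tuba1a made up 78.0% ± 2.2 of the summed alpha members in NC 72 h (SD, n = 5) and 82.2% ± 1.6 in KD 72 h (n = 6), while Tuba1b went from 16.3% ± 1.2 to 12.5% ± 0.8 with no overlap. Tubb2a made up 17.98% ± 0.92 of the beta members in NC 72 h and 26.4% ± 4.0 in KD 72 h, again with no overlap. Tubb4b went the other way, from 17.5% ± 3.2 to 11.8% ± 1.0, and its shares did not overlap either. A share also falls when other members rise, and the levels of Tuba1b and Tubb4b overlapped between the groups. Tuba1b had 113 to 146 scaled RPKM in KD 72 h and 106 to 137 in NC 72 h, and Tubb4b 67.5 to 81.5 and 70.0 to 101. How often shares or levels fail to overlap among other genes was not examined. Tubb5 held 44.4% ± 1.5 and 39.97% ± 4.40. At 24 h the shares of all 10 isotypes overlapped between KD and NC. The summed alpha members had 931 to 1165 scaled RPKM in KD 72 h and 679 to 825 in NC 72 h, and the summed beta members 561 to 646 and 448 to 548.

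**Figure D4:**
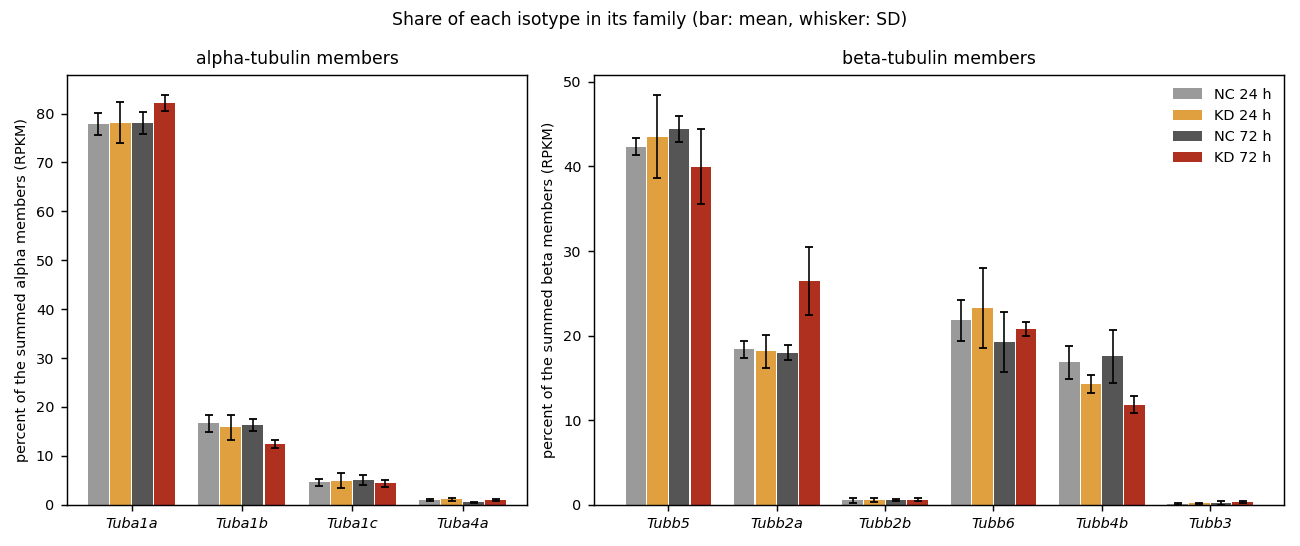
Share of each isotype in the summed scaled RPKM of the 4 alpha or the 6 beta members, in percent (vertical axes start at 0), as mean (bar) and SD (whisker) of NC 24 h, KD 24 h, NC 72 h and KD 72 h. The Tubb2a share stands at 26.4% in KD 72 h against 17.98% to 18.4% in the other 3 groups.

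Isotypes also varied together among libraries of a group. After the group means were taken off, the correlation across 23 samples was highest between Tuba1a and Tubb6 (r = 0.83), followed by Tuba1a with Tubb5 (r = 0.66) and Tubb5 with Tubb6 (r = 0.63), and lowest between Tuba1c and Tubb6 (r = -0.42). These are descriptions of points that share library, depth and cluster.

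Promoters are shown for Tubb2a and Tuba1a, which were higher in KD at 72 h, and for Tubb4b, which was lower at 24 h. They span 250 bases before to 50 after the gene start in RefSeq on GRCm38.p6, on the minus strand, at chr13:34077959-34078258, chr15:98953452-98953751 and chr2:25224653-25224952. Capitals mark CCAAT and GGGCGG on either strand.
Tubb2a: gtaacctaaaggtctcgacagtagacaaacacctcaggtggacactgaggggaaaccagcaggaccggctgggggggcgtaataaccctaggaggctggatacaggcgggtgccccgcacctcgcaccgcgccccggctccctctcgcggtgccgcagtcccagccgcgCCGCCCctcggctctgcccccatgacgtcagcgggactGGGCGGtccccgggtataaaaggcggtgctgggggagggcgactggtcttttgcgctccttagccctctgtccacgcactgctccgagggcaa
Tuba1a: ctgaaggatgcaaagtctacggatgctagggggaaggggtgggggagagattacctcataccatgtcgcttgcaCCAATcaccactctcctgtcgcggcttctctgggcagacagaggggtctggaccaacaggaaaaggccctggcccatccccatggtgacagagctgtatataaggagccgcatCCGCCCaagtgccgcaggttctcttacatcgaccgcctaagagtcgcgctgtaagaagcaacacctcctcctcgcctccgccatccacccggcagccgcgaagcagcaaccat
Tubb4b: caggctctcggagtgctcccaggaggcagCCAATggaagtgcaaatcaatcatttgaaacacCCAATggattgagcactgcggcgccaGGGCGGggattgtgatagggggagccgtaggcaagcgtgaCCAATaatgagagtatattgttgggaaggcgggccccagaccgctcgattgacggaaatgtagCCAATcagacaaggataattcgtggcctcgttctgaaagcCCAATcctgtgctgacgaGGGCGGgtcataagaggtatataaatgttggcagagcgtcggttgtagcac
Of the 8 members whose promoter was examined, 7 held GGGCGG and 5 held CCAAT, against 35.7% and 37.4% of the 32851 promoters of the same length that were searched. CACGTG was found in 1 (7.2% of all promoters), CATTCC in 1 (14.7%) and TGACTCA in 0 (5.2%). Tubb4b held 5 copies of CCAAT, and Tubb2a had none. Promoters of Tubb2b and Tubb6 were not among those examined. A match is only a run of letters, and motifs did not overlap each other in these promoters.

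Genes that fold, modify and use tubulin were followed from lists. Of 21 genes for folding (the CCT chaperonin, prefoldin and tubulin cofactors), 20 were tested, and 6 were higher in KD at 24 h and 6 at 72 h, with 0 lower at either time, where 10.9% and 10.3% of all entries were called higher. Cct3, a CCT subunit, had 149 to 191 scaled RPKM in KD 24 h against 92.2 to 119 in NC 24 h, and 109 to 144 in KD 72 h against 77.9 to 92.8 in NC 72 h. Its log2 fold changes were 0.70 ± 0.10 (adjusted p = 5.25e-04) and 0.64 ± 0.09 (adjusted p = 3.16e-04). Pfdn4 of prefoldin was higher at 24 h (0.67 ± 0.10) and the CCT subunit Cct7 at 72 h (0.50 ± 0.09). The other called genes, named after their values were seen, were the CCT subunits Cct2, Cct5 and Cct6a at both times, Cct8 at 72 h and Pfdn2 at 24 h. The median of the list was 0.09 at both times, beside -0.01 and 0.01 over all entries.

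Of 18 genes for tubulin modification 10 were tested at 24 h and 12 at 72 h, with 0 higher and 1 lower at 24 h and 1 higher and 1 lower at 72 h. Sirt2, a deacetylase with tubulin among its substrates, was lower at both times, with log2 fold changes of -0.998 ± 0.17 and -0.66 ± 0.11. Vash2, a tubulin carboxypeptidase, was higher at 72 h (1.54 ± 0.47), but reached the minimum level through the KD 72 h libraries. Among 40 microtubule-associated proteins 4 were higher and 6 lower of 23 at 24 h, and 2 were higher and 5 lower of 25 at 72 h, beside 10.9% higher and 11.8% lower of all entries at 24 h and 10.3% and 11.9% at 72 h. The kinase Dclk1 had the largest drop at both times, with 1.80 to 6.71 scaled RPKM in KD 24 h against 11.1 to 19.6 in NC 24 h (-1.95 ± 0.28) and 4.94 to 7.56 in KD 72 h against 16.6 to 25.0 in NC 72 h (-1.69 ± 0.15). Clasp1, which stabilises growing ends, was lower at 24 h and 72 h (-1.13 ± 0.24 and -0.97 ± 0.25), as was the end-binding gene Mapre2 (-1.17 ± 0.25 and -0.94 ± 0.22). Map1lc3a and Katna1, a severing subunit, were higher at 24 h (0.63 ± 0.10 and 0.86 ± 0.15). Map1s was higher at both times (1.20 ± 0.37 and 0.92 ± 0.22) and Tppp3 at 72 h (1.54 ± 0.29), where it passed the minimum level only in KD libraries.

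Of 35 motor genes 28 were tested at 24 h, of which 1 was higher and 3 were lower, and 29 at 72 h, of which 0 were higher and 3 lower. Kif1b, a kinesin, was lower at both times (-1.48 ± 0.27 and -1.11 ± 0.20). Actr1a, of the dynactin complex, was lower at 24 h (-0.47 ± 0.15) and the dynein light chain gene Dynlrb1 at 72 h (-0.36 ± 0.10), while the light chain gene Dynll2 was higher at 24 h (0.55 ± 0.12). Of 10 other tubulin genes 3 were tested at 24 h and 2 at 72 h, gamma, delta and epsilon tubulins, and limma called 0 of them, also at an unadjusted p-value under 0.05. The list medians at 72 h lay between -0.02 and 0.09, whereas that of the isotypes was 0.48. These medians include Tubb3, Vash2 and Tppp3, which were tested through their KD 72 h libraries, and their difference was not tested.

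**Figure D5:**
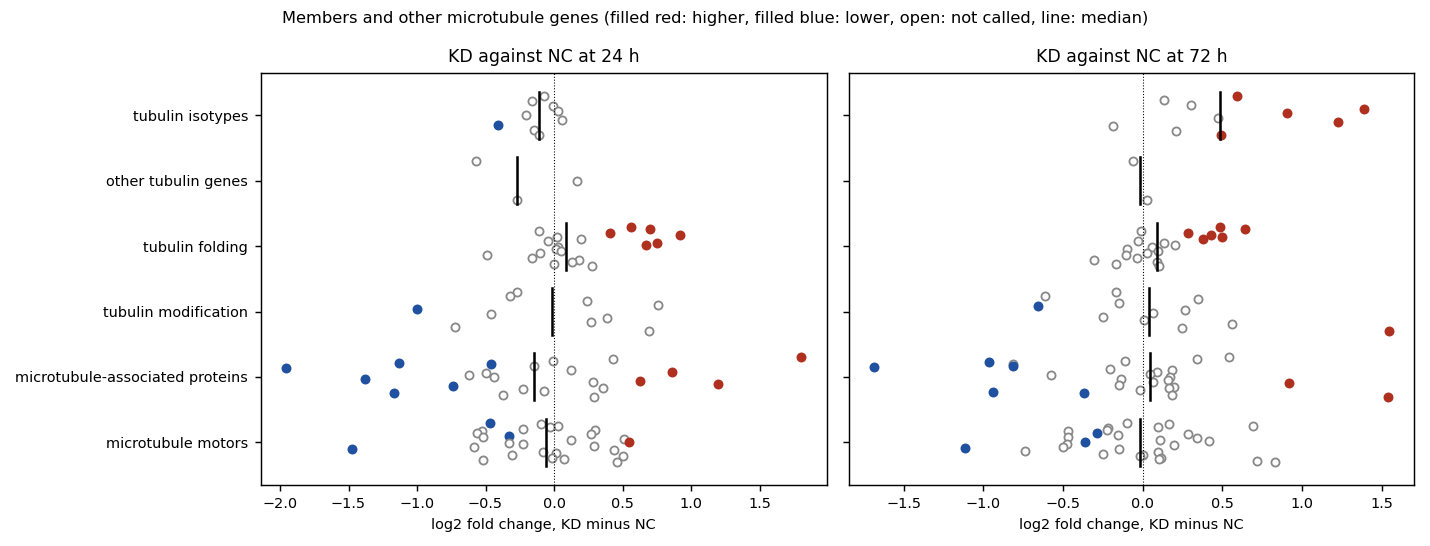
Log2 fold change of KD against NC (horizontal axis) for every tested gene of the isotypes and of 5 lists of microtubule genes at 24 h and 72 h, filled red for higher, filled blue for lower and open for not called, with the list median (line). At 72 h the isotype median is 0.48, and those of the other lists lie between -0.02 and 0.09. The isotype median includes Tubb3, which reached the minimum level through the KD 72 h libraries.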

How the data were processed

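RNA of 24 libraries was sequenced from the 3′ end after pooling (BRB-seq), and the authors mapped reads and deposited 1 table of RPKM per transcript entry. The build, the strand setting and the version of their mapping software are not given in the sources used here. No per-sample column was left unused.

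Deposited RPKM were scaled by a trimmed mean of log ratios (trimming 30% of ratios and 5% of levels), and log2(value + 0.1) was fitted by limma 3.58.1 (R 4.3.3) with a mean-variance trend and Benjamini-Hochberg correction over all entries tested. Fold changes are on that scale, which understates changes of low genes. An entry was tested if it reached the equivalent of 10 reads in at least the number of samples of the smaller group, and 15 reads over all samples. Depth came from the steps of low RPKM values, 94.1% to 94.7% of which gave whole reads within 0.05. The 2 NC 72 h libraries that differed by less than the sampling noise had a ratio of 0.36, the next of 276 pairs 2.13. In NC 72 h replicate 6 values moved in steps of 2 sizes, and its depth is an upper value. Errors and counts of reads cover counting and the spread between libraries only.

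The isotypes, gene lists and tests were chosen with earlier results of these data known. All 10 isotypes are named, and from each list the called genes with the smallest p, up to 2 higher and 2 lower at each time. No isotype was called in KD against NC at both times, so no genes of like pattern are named. The fit was tested on simulated reads with a spread set in advance. It called 84.9% of 2-fold changes, 23.7% of 1.5-fold changes and 0.1% of unchanged genes. The coding ends of Tuba1a and Tuba1b are not reported here.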

Additional observations from a re-analysis of the deposited data

Results flagged for a closer look

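Tubb2a differed in its knockdown effect between 24 h and 72 h by 1.11 on the log2 scale, in a test of that difference (limma, adjusted p = 0.0104). Leaving out each library in turn gave 1.05 to 1.21. It was 1.33 within the larger cluster of libraries and 0.68 within the smaller one (adjusted p = 0.0591).

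In 3 of the 40 isotype groups examined, 1 library stood apart from the others of its group, where chance gives about 1 in 20. Tubb2b had 6.36 scaled RPKM in KD 72 h replicate 4, the next being 3.80. Tubb3 had 2.52 in NC 72 h replicate 6, the next being 0.858, and without that library its log2 fold change at 72 h was 1.61. Tubb4b had 81.5 in KD 72 h replicate 2, the next being 72.7.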

How the results depend on the processing

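Of 874 alternative values of single isotypes for KD against NC and their difference between times, 798 kept their direction and their side of the threshold. At 24 h the count of called isotypes fell from 1 to 0 without a filter, with the replicate number as a block and in the smaller cluster, and ran from 0 to 1 on leaving out each library. At 72 h it was 3 without a filter, 8 on the deposited scale and 0 in the smaller cluster, and ran from 3 to 5 on leaving out each library, with 3 without KD 72 h replicate 1 or 4, NC 72 h replicate 1 or the averaged replicates. For the interaction it rose from 1 to 2 with a pseudocount of 1, with 1 entry per symbol, with curated entries only, with voom on recovered reads, with the cluster as covariate and with NC 72 h replicates 2 and 3 separate. It was 5 on the deposited scale and 0 in the smaller cluster, and 1 to 2 on leaving out each library. For NC over time it was 1 on the deposited scale, with curated entries and with voom, 2 in the larger cluster, with the cluster as covariate and with replicates 2 and 3 separate, and 0 to 1 on leaving out each library. For KD over time it was 3 in the smaller cluster and 6 to 7 on leaving out each library.

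Directions turned for small values. At 24 h, Tuba1c stood at 0.05 on the deposited scale, Tuba4a at 0.00 with voom and -0.35 in the smaller cluster, and Tubb2b at -0.80 there. At 72 h Tubb4b was 0.07 on the deposited scale. In the smaller cluster the interaction of Tubb4b was -0.05, and Tubb6 fell by 0.07 over time in KD. Over time in NC, Tubb2a was -0.01 on the deposited scale, and in the smaller cluster Tuba1a was -0.04, Tuba1b -0.01, Tubb2a -0.18, Tubb2b -0.10 and Tubb5 -0.01. On leaving out each library at 24 h, Tuba1a ran from -0.14 to 0.02, Tuba1c from -0.09 to 0.03, Tuba4a from -0.10 to 0.14, Tubb2b from -0.29 to 0.33 and Tubb6 from -0.21 to 0.08. Over time in NC, Tubb2a ran from -0.03 to 0.07 and Tubb2b from -0.03 to 0.59, and the interaction of Tubb3 from -0.03 to 0.76. The cause of these changes was not tested.

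No pairing of samples by replicate number was seen: the correlation of deviations of same-numbered libraries averaged -0.09 at 24 h and 0.03 at 72 h. A pairing by culture or animal under other numbers would not show in these values. With the replicate number as a block, 4 isotypes instead of 5 were called at 72 h (Tubb3 at 1.09, adjusted p = 0.107), and Tubb4b at 24 h had an adjusted p of 0.08. Depth limits Tubb3, Tubb2b and Tuba4a most, with medians of 5.5, 19.5 and 59 reads per library.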
